A study of Ceratopteris richardii with 15 samples.

Results

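A set of 189 genes of 88641 in the deposited table, here called the abundant root genes, was examined in the fern Ceratopteris richardii. They were chosen by their measured levels in TPM (transcript abundance corrected for gene length and summing to 1000000 in a library). Each had a root mean of at least 50 TPM that was at least 4 times the mean of every other tissue. Its 3 root values lay within 2-fold of each other, and at least 1 of the 12 libraries from outside the root reached 10% of the root mean. High root levels and low levels elsewhere are therefore the rule itself and are given below as a description, with no test.

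The plants were wild type RNWT1 sporophytes, the spore-producing generation of the fern, raised from spores and taken at 50 days. Each of 5 tissues had 3 libraries: the root tip, the root behind it, the leaf tip, the leaf behind it, and the shoot tip. "Root" and "leaf" below mean the organ with its tip removed. All libraries share the genotype, age and growth conditions, and the labels do not say whether replicates came from separate plants, so a p-value here is read against replicate spread that may be technical only.

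In ferns, roots, leaves and the shoot each grow from an apical cell at the tip, and cells mature with distance from it. The root behind the tip holds differentiated tissue, including root hairs, cortex, endodermis and vascular strands, which take up and move water and minerals. Most fern roots arise from the shoot. A root or leaf sample without its tip is thus taken here as mainly matured cells, while the shoot tip sample includes a growing apex. The tissue labels do not say how much of each tip was cut off, and growing cells may remain. "Mature" below means only that the tip was removed. The identifiers in the table are those of a transcript assembly and carry no gene name. No identifier of the whole table, the 189 included, matched a reference gene table of the species (0 matches among 36816 genes of the assembly C.richardii_v2). Only identifiers were compared and no sequences, so this does not show that the genes are absent from that assembly. No marker gene could therefore be looked up to check the tissue labels, and the genes are named by identifier with no function. In these bulk samples, fewer cells of a type and less RNA per cell cannot be told apart.

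The depth of sequencing is unknown, since TPM was scaled to 1000000 in every library. Between 27116 and 35035 genes per library were at 1 TPM or more. Root replicate 3 was unlike root replicates 1 and 2. Among the 189 genes its value was 0.517 to 1.86 times the mean of replicates 1 and 2, with a median of 0.901, and it was the lower in 122 and the higher in 67. Replicates 1 and 2 never differed by more than 1.2-fold (median 1.02-fold). The rule let no root value differ by over 2-fold, so this range is bounded by the choice of the genes. Without replicate 3 the rule would have taken 233 genes, of which 175 are among the 189.

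**Figure D1:**
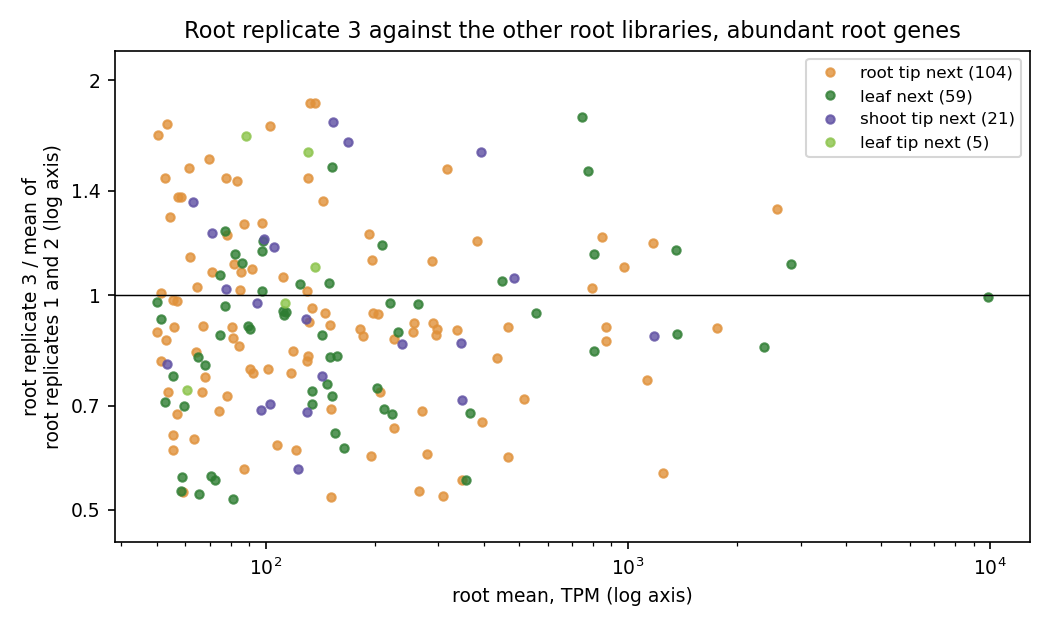
Each point is an abundant root gene, with its root mean in TPM on the horizontal log axis and the value of root replicate 3 over the mean of root replicates 1 and 2 on the vertical log axis, coloured by the tissue outside the root with the highest mean. The ratio runs from 0.517 to 1.86, with 122 genes below 1, and each colour holds genes on both sides of 1.

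The identifiers' prefixes, which follow the tissue codes of the columns, were not used by the rule. They may still depend on the level of a gene in that tissue, which was not tested. The whole table, given for comparison, is not matched to the set in root level. Of the 189 genes 114 (60.3%) carried the root prefix RO and 29 (15.3%) the root tip prefix RT, against 32.5% and 12.1% of the whole table. The other 46 were spread over the shoot tip prefix with 17 (9.0%), the leaf tip prefix with 15 (7.94%) and the leaf prefix with 14 (7.41%). In the whole table these prefixes had 21.4%, 23.1% and 10.9%. The prefix did not always match the tissue of the highest level, as the most abundant of the 189 carries the shoot tip prefix. A further 123 genes met every condition except that no library outside the root reached 10% of the root mean, and 74.8% of these carried the root prefix. Genes taken by the same rule with leaf and root exchanged numbered 151, and 46.4% of them had the leaf prefix, against 10.9% of the whole table.

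Together the 189 genes made up 5.96% ± 0.14 of all TPM in root, 0.732% ± 0.0059 in root tip, 0.699% ± 0.0074 in leaf, 0.345% ± 0.0021 in shoot tip and 0.177% ± 0.0003 in leaf tip (SD, n = 3 each). Their root means ran from 50.1 to 9872 TPM with a median of 129.8, and 111 of them were at 100 TPM or more. The median of their means was 16.3 TPM in root tip, 11.9 in leaf, 8.44 in shoot tip and 2.96 in leaf tip. For all 3671 genes with a root mean of at least 50 TPM, the corresponding medians were 77.6, 54.1, 60.4 and 53.8 TPM. Few of the 189 were near 0 in root tip or shoot tip, where 8 and 13 had a mean under 1 TPM, while 62 were under 1 TPM in leaf tip and 19 in leaf. Between replicates the coefficient of variation of genes at 5 TPM or more had a median of 11.8% in root and of 3.79% to 4.48% in the other tissues.

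The set was top-heavy. Its 10 most abundant genes held 42.7% to 44.1% of its summed TPM in the root libraries, and SHA_TRINITY_DN11391_c0_g1 alone held 16.3% to 16.9%. This gene was at 9905, 9872 and 9839 TPM in the root libraries, 658.4, 687 and 683.8 in root tip, 2063, 2166 and 2215 in leaf, 42.5, 42 and 40.5 in leaf tip and 88.4, 91.4 and 93.4 in shoot tip. No tissue overlapped another for it, and leaf, the next tissue, stood at 21.8% of the root mean. Its fitted log2 fold change was 5.65 between leaf and leaf tip (SE 0.03, adjusted p = 3.5e-18) and 2.88 between root tip and shoot tip (SE 0.03, adjusted p = 2.5e-15). In the leaf libraries this gene held 29.9% to 31.4% of the summed TPM of the set, so the leaf sum rests on it more than the root sum does.

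**Figure D2:**
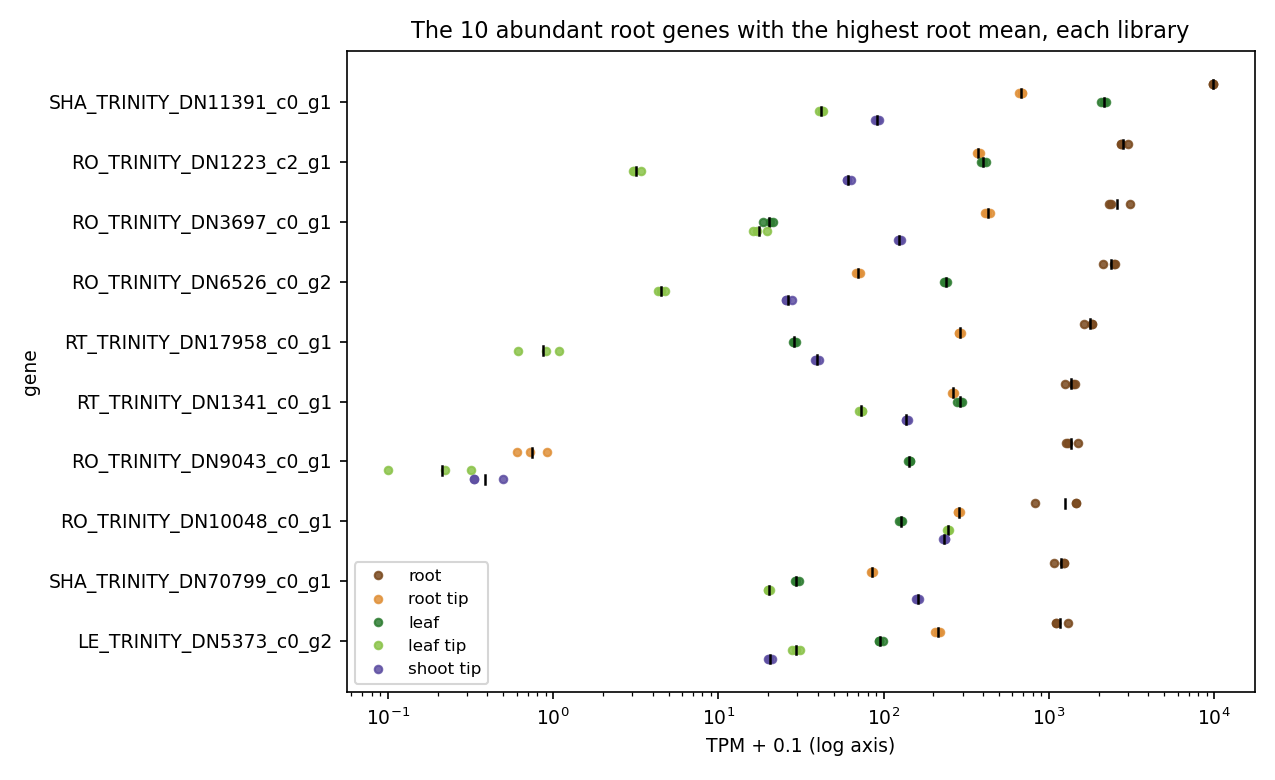
The 10 abundant root genes with the highest root mean, 1 row each, with TPM + 0.1 on a horizontal log axis; points are the 15 libraries coloured by tissue, and black ticks are tissue means of 3 libraries. The root points are the highest in all 10 rows, as the rule requires, while the order of the other tissues differs between genes: RO_TRINITY_DN9043_c0_g1 is at 142.8 TPM in leaf and under 1 TPM in the tips, and RO_TRINITY_DN10048_c0_g1 is at 126.6 to 284 TPM in all 4.

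Outside the root the genes followed several patterns. The highest other tissue was root tip for 104 genes (55%), leaf for 59 (31.2%), shoot tip for 21 (11.1%) and leaf tip for 5 (2.65%). The lowest was leaf tip for 140 genes, leaf for 29, and root tip and shoot tip for 10 each. These counts were not made for the 3671 genes with a root mean of at least 50 TPM. Outside the root, the medians of those genes were likewise highest in root tip (77.6 TPM). They were lowest in leaf tip (53.8 TPM), though leaf was close at 54.05. The most frequent order was root tip, leaf, shoot tip, leaf tip, found in 45 genes, followed by leaf, root tip, shoot tip, leaf tip in 37. In 107 genes only 1 tissue mean outside the root reached 10% of the root mean, in 19 genes all 4 did, and in 4 genes no tissue mean did although at least 1 library had. For 75 genes the highest other tissue led the following one by less than 1.5-fold, so the name of the next tissue separates them little. It led by at least 4-fold in 43 genes. In the 151 genes of the leaf counterpart, the organ's own tip was the highest other tissue in 68 (45%) and root in 32 (21.2%); the difference of these shares from those of the root set was not tested.

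**Figure D3:**
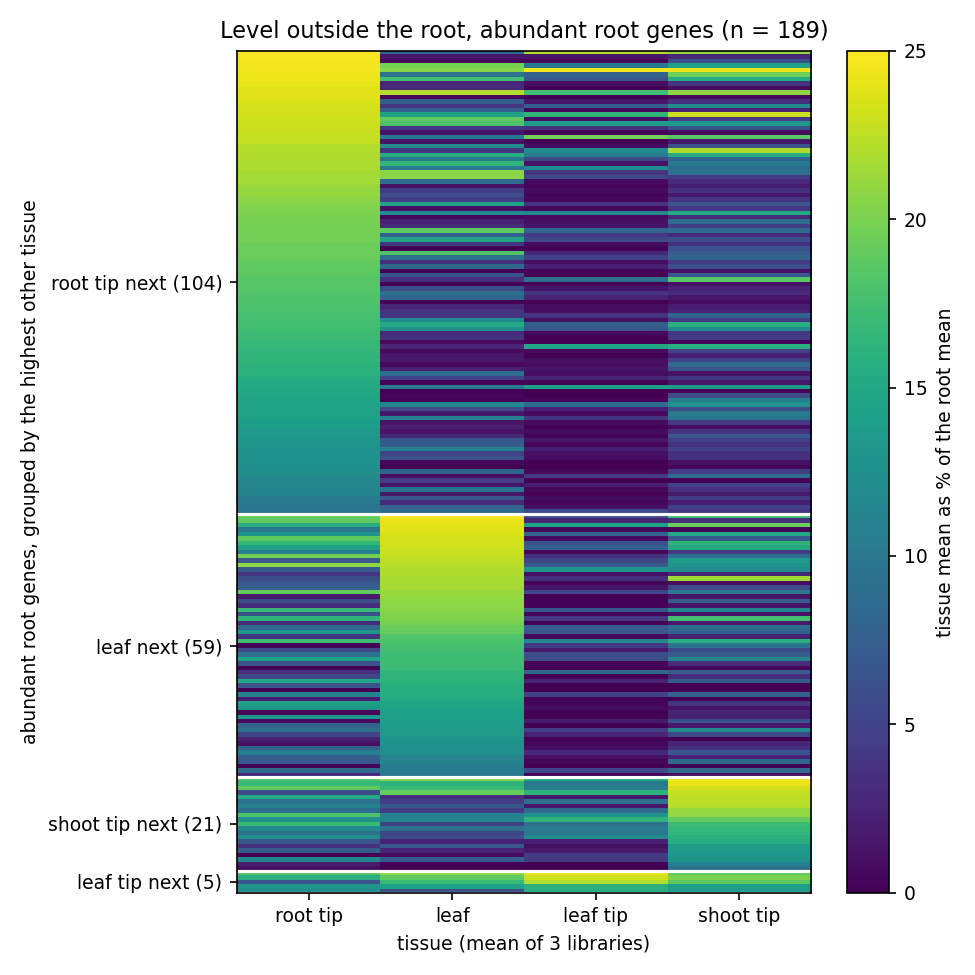
Each row is 1 of the 189 abundant root genes and each column a tissue other than root; the colour gives the tissue mean of 3 libraries as a percentage of the root mean, from 0 to 25. Rows are grouped by the highest other tissue (root tip 104, leaf 59, shoot tip 21, leaf tip 5), and the leaf tip column is the darkest over most rows, being the lowest tissue in 140 genes.

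Among the 104 genes that were next highest in root tip, the root tip mean was 9.81% to 24.8% of the root mean. RO_TRINITY_DN3697_c0_g1 was at 2300, 2360.3 and 3074 TPM in the root libraries and 412, 423.8 and 440.3 in root tip. It was lower elsewhere, at 121.9, 126.8 and 124.4 TPM in shoot tip, 21.2, 20.5 and 18.4 in leaf and 17, 19.5 and 16.1 in leaf tip. Leaf and leaf tip overlapped for this gene, and its root replicate 3 was the highest of the root values. RT_TRINITY_DN17958_c0_g1 had root values of 1809.9, 1832 and 1639 TPM and root tip values of 283.8, 285.7 and 294.6. It showed 38.4, 40.3 and 38.9 TPM in shoot tip, 29.2, 28.5 and 28.2 in leaf and 0.51, 0.98 and 0.8 in leaf tip. Here all 5 tissues were apart, and leaf tip was the only tissue under 1 TPM. RO_TRINITY_DN10048_c0_g1 was at 1468, 1451 and 821.2 TPM in root, with 281, 281.2 and 289.8 in root tip, 227.3, 235.3 and 234 in shoot tip, 126.4, 124.3 and 129.3 in leaf and 240.3, 245.7 and 249.1 in leaf tip. It is one of the 19 genes with all 4 tissue means at 10% or more, and its root replicate 3 was at 0.563 times the others. LE_TRINITY_DN5373_c0_g2 was at 1097, 1109 and 1303 TPM in root and 213, 217.6 and 205.2 in root tip, with means of 95.5 TPM in leaf, 29.4 in leaf tip and 20.3 in shoot tip.

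The genes furthest above leaf in root tip were under 1 TPM in leaf and leaf tip. RO_TRINITY_DN10583_c0_g1 was at 467.3, 460.4 and 378.9 TPM in root and 76.7, 79.6 and 79.4 in root tip. It was at 0.09, 0.07 and 0.11 TPM in leaf, 0.12, 0.11 and 0.07 in leaf tip and 4.06, 3.3 and 3.99 in shoot tip. Its fitted log2 fold change was 6.19 between root tip and leaf (adjusted p = 2e-15) and 4.06 between root tip and shoot tip (adjusted p = 2.6e-13). RO_TRINITY_DN851_c1_g1 was alike in shape, with 483.3, 483.5 and 436.2 TPM in root, 84.8, 85.1 and 88 in root tip, means of 0.6 in leaf and 0.69 in leaf tip, and 5.64 in shoot tip (root tip minus leaf 5.77 on the log2 scale, SE 0.09, adjusted p = 1.8e-14). In both genes the root tip values lay at least 10-fold above every value of the shoot tip, leaf and leaf tip.

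Among the 59 genes that were next highest in leaf, the leaf mean was 9.96% to 24.7% of the root mean and the median leaf tip mean was 2.24 TPM. RO_TRINITY_DN1223_c2_g1 was at 2736, 2716 and 3009.8 TPM in root, 400.5, 414.2 and 387.8 in leaf and 370.3, 365.1 and 381.4 in root tip. Its leaf and root tip values were apart by little (root tip minus leaf -0.11 on the log2 scale, SE 0.04), which is under the 2-fold minimum. Leaf tip held 2.92, 2.99 and 3.3 TPM of it and shoot tip 59.7, 62.9 and 59.5. RT_TRINITY_DN1341_c0_g1 was at 1437, 1408 and 1256 TPM in root, with means of 289.3 in leaf, 261.5 in root tip, 136.9 in shoot tip and 72.7 in leaf tip. RO_TRINITY_DN9043_c0_g1 and RO_TRINITY_DN20090_c0_g1 were high in the mature parts of both organs and near 0 in the root tip and leaf tip. The former was at 1274, 1311 and 1494 TPM in root and 140.2, 143.9 and 144.2 in leaf, against 0.82, 0.62 and 0.5 in root tip, 0, 0.12 and 0.22 in leaf tip and 0.23, 0.23 and 0.4 in shoot tip. The latter was at 583, 606.5 and 1058 TPM in root, the last in replicate 3, and 129.5, 120.8 and 130.3 in leaf. It held 0.63, 0.67 and 0.57 TPM in root tip, 0.04, 0.03 and 0.12 in leaf tip and 3.66, 3.43 and 3.52 in shoot tip. These genes had the largest leaf minus leaf tip differences of the set, at 7.02 (SE 0.1, adjusted p = 6.7e-15) and 6.91 (SE 0.06, adjusted p = 1.9e-16) on the log2 scale. RT_TRINITY_DN1120_c0_g1 was at 421.5, 419.2 and 231.5 TPM in root, 84.9, 86 and 84.6 in leaf and 36.3, 36.1 and 34.8 in root tip, with 1.35, 1.37 and 1.58 in leaf tip and 0.99, 1.39 and 1.02 in shoot tip. Its root tip minus shoot tip difference of 4.11 (SE 0.07, adjusted p = 9.7e-14) was the largest of the set. LA_TRINITY_DN8921_c0_g1 had the reverse order in those tips, with 0.72, 0.38 and 0.51 TPM in root tip and 12.8, 15.3 and 12.9 in shoot tip (root tip minus shoot tip -3.26, SE 0.09, adjusted p = 6.1e-12), while leaf held 25.6, 25.1 and 25.5 and root 146.1, 152.2 and 131.1.

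The 21 genes next highest in shoot tip had shoot tip means of 9.46% to 24.6% of the root mean. SHA_TRINITY_DN70799_c0_g1 was at 1228, 1234 and 1077 TPM in root and 156.6, 159.8 and 164 in shoot tip, with 84.3, 83.2 and 85.7 in root tip, 28.9, 30.4 and 29.4 in leaf and 20.4, 19.8 and 19.9 in leaf tip. RO_TRINITY_DN21458_c1_g1 was at 469.8, 480.6 and 501.4 TPM in root and had means of 109.9 in shoot tip, 92.6 in leaf, 77.1 in leaf tip and 28.2 in root tip. For both, the shoot tip values were above those of every other tissue but root. RO_TRINITY_DN1753_c0_g1 was next highest in shoot tip and leaf tip and under 1 TPM in root tip. It was at 328.5, 328 and 521.5 TPM in root, 51.5, 51.9 and 51.5 in shoot tip, 16.6, 16.8 and 18.1 in leaf tip, 3.19, 2.94 and 2.59 in leaf and 0.08, 0.18 and 0.09 in root tip. Its root tip minus shoot tip difference of -5.56 (SE 0.07, adjusted p = 6.8e-15) and its leaf minus leaf tip difference of -2.22 (SE 0.07, adjusted p = 7.6e-12) were the lowest of the set. SHA_TRINITY_DN5064_c0_g1 was at 139.6, 139.4 and 228.9 TPM in root and 18.3, 19.6 and 17 in shoot tip, with 3.28, 2.79 and 3.9 in root tip and under 0.5 TPM in every leaf and leaf tip library. In the last 2 genes root replicate 3 was about 1.6 times the other root libraries (ratios of 1.59 and 1.64).

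Of the 5 genes next highest in leaf tip, 2 passed the F test and its 2-fold minimum, described below, RO_TRINITY_DN3146_c0_g1 and RO_TRINITY_DN2000_c0_g1, and 3 spanned less than 2-fold between tissue means outside the root. RO_TRINITY_DN20927_c0_g1 was at 131.9, 134.2 and 145.7 TPM in root and between 17.2 and 22.5 TPM in all 12 other libraries. RO_TRINITY_DN12942_c0_g1 was at 115.5, 112.4 and 111.2 TPM in root and had means of 26.2 TPM in leaf tip, 22.7 in shoot tip, 21.4 in leaf and 17.7 in root tip. RO_TRINITY_DN3146_c0_g1 was at 107.8, 111.6 and 174.2 TPM in root, 30, 26.1 and 30.6 in leaf tip, 21.5, 21.8 and 23.5 in leaf, 25.6, 22.3 and 25.6 in shoot tip and 8.63, 9.09 and 7.95 in root tip. For the last gene leaf tip and shoot tip were apart by little and root tip was below all others.

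In 2 cases a pair of genes shared the DN number of the assembler, which groups related reads. Whether reads were divided between such genes was not tested. RO_TRINITY_DN6526_c0_g2 was at 2489, 2524 and 2117 TPM in root, 230.7, 236.4 and 243.2 in leaf and 67.4, 71.6 and 69.7 in root tip, and RO_TRINITY_DN6526_c1_g1 at 263, 267.3 and 257.8 TPM in root, 50.5, 43.5 and 41.3 in leaf and 15.9, 15.4 and 18 in root tip. Both had the order root, leaf, root tip, shoot tip, leaf tip. RT_TRINITY_DN14787_c0_g1 and RT_TRINITY_DN14787_c0_g4 averaged 346.1 and 238.5 TPM in root and 77.8 and 50.3 TPM in shoot tip, their next tissue. In all, 46 of the 189 genes shared a DN number and prefix with some other gene of the table.

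The rule did not compare the 4 tissues outside the root with each other. Contrasts among these tissues were tested with limma over 37182 genes, those with at least 1 TPM in 3 or more of the 12 libraries. All 189 genes passed this filter. A gene was called when its adjusted p was under 0.05 and it differed by at least 2-fold on the log2(TPM + 1) scale, a scale that understates the change of low genes. The rule does set a floor of 10% of the root mean for the highest of the 12 libraries. In 107 genes only 1 tissue mean outside the root reached 10%. Some unevenness among these tissues therefore follows from the rule, in the contrasts below as in the F test. How much was not tested. By the moderated F test 172 of the 189 genes (91%) differed among the 4 tissues with at least a 2-fold range of means, against 62% of all genes tested. Among the 25130 tested genes with at least 5 TPM in some library outside the root, the smallest value the rule allows there, the share was 69%.

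Leaf and leaf tip asked whether genes high in the mature root also lie higher in the mature part of the other organ. Of the 189 genes 104 (55%) were called higher in leaf than in leaf tip, where 11.9% of all genes tested were, and 7 (3.7%) were called lower, where 26.8% of all genes were. Among the 3652 tested genes with a root mean of at least 50 TPM, 26.1% were higher and 17.3% lower in leaf. The median log2 difference was 1.21 in the set and -0.44 over all genes. The called genes were 54 of the 59 next highest in leaf, a group defined by its leaf level, with 48 of the 104 next highest in root tip, where 5 were called lower, and 2 of the 21 next highest in shoot tip. LA_TRINITY_DN2000_c1_g1 was among the 7 in the opposite direction, at 3.65, 3.33 and 3.91 TPM in leaf and 20.1, 20.4 and 19.9 in leaf tip, with 132.8, 139.6 and 130.6 in root (leaf minus leaf tip -2.19, SE 0.06, adjusted p = 2.9e-12). Scaling mattered to the all-gene values, whose median shifted by 0.38 under median-ratio scaling and by 0.39 under quantile normalization. All genes were then called higher in leaf in 18% and 17% and lower in 15.9% and 16%, and the same 104 genes of the set stayed called under all 3 scalings, with 3 of the 7 lower ones. When the set was chosen without root replicate 3, 125 of 233 genes were higher and 15 lower in leaf.

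Root tip and shoot tip compare a root apex with the shoot apex. In the set 94 genes (49.7%) were higher in root tip, against 10.1% of all genes tested and 21.1% of those with a root mean of at least 50 TPM. Another 14 (7.41%) were higher in shoot tip, against 11.8% of all genes and 3.72% of the genes at 50 TPM or more in root. The median log2 difference was 1.00 in the set and -0.19 over all genes. The 94 genes comprised 78 of the 104 next highest in root tip and 16 of the 59 next highest in leaf, a split that the definition of these groups largely fixes. The 104 genes higher in leaf than in leaf tip and the 94 higher in root tip than in shoot tip had 60 in common, which is 57.7% of the former and 63.8% of the latter. These contrasts share no library. The shares stand beside 49.7% of all 189 genes higher in root tip than in shoot tip and 55% higher in leaf than in leaf tip. Over all genes tested, 1171 were called in both contrasts. They were 26.5% of all genes higher in leaf, beside the 10.1% of all genes higher in root tip. They were 31.2% of all genes higher in root tip, beside the 11.9% of all genes higher in leaf. The overlap is thus not particular to the set. With the set chosen without root replicate 3, 120 of 233 genes were higher in root tip and 18 in shoot tip.

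**Figure D4:**
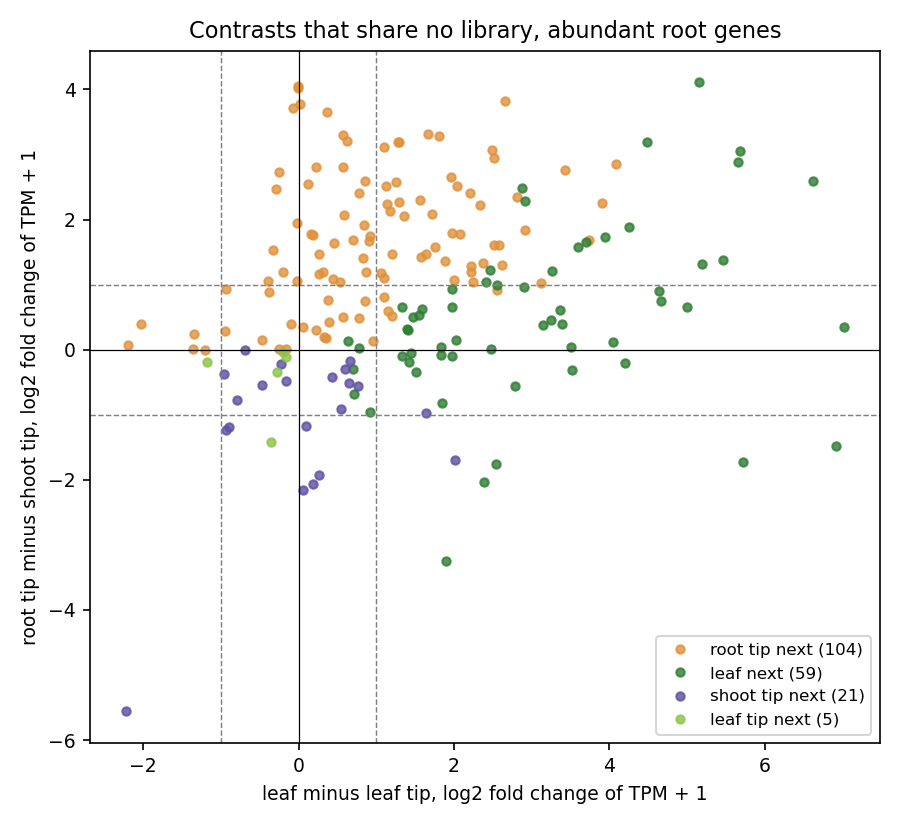
Each point is 1 of the 189 abundant root genes, with the leaf minus leaf tip log2 fold change on the horizontal axis and the root tip minus shoot tip log2 fold change on the vertical axis, both on TPM + 1, coloured by the highest tissue outside the root; dashed lines mark the 2-fold minimum. In the upper right field lie the 60 genes called higher in leaf and in root tip, and RO_TRINITY_DN1753_c0_g1 lies alone at the lower left at -2.22 and -5.56.

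Leaf tip and shoot tip gave calls in 1 direction for the set. None of the 189 genes was called higher in leaf tip (2.46% of all genes tested were), and 98 (51.9%) were called higher in shoot tip, against 6.72% of all genes and 15.7% of the genes with a root mean of at least 50 TPM. The count of 0 is a count at the 2-fold minimum of limma. With no minimum fold 16 genes were higher in leaf tip at an unadjusted p under 0.05, and 16 also at an adjusted p under 0.05. They were led by LE_TRINITY_DN5373_c0_g2 at 0.51 on the log2 scale. When the set was chosen without root replicate 3, 7 of 233 genes were called higher in leaf tip and 112 in shoot tip, so the 0 depends on that library. The median log2 difference, leaf tip minus shoot tip, was -1.02 in the set and -0.02 over all genes. It was lowest in RT_TRINITY_DN17958_c0_g1 at -4.52 (SE 0.07, adjusted p = 2.6e-13), whose values are given above, and next lowest in SHA_TRINITY_DN5064_c0_g1 at -4.01 (SE 0.14, adjusted p = 1.9e-10). Of the 98 genes higher in shoot tip 85 were called under all 3 scalings, and with a pseudocount of 5 in place of 1 the count became 46.

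Root tip and leaf separated the set least from other genes. In root tip 74 genes (39.2%) were higher and 34 (18%) lower than in leaf. Of all genes tested 24.7% were higher and 11.1% lower, and of those with a root mean of at least 50 TPM 34.4% and 13%, so the share higher in root tip was near that of other abundant root genes. Under median-ratio scaling the set's median difference was 0.12 in place of 0.53, with a shift of -0.29 in the all-gene median, and 57 of the 74 genes and all 34 lower ones were called under all 3 scalings. The direction divided the set, as 69 of the 74 belonged to the genes next highest in root tip and 31 of the 34 to those next highest in leaf, which those groups' definition favours. The values furthest apart were those of RO_TRINITY_DN10583_c0_g1 at 6.19 and RO_TRINITY_DN9043_c0_g1 at -6.45 (SE 0.1, adjusted p = 1.5e-14). With the set chosen without root replicate 3, 95 of 233 genes were higher in root tip and 44 lower.

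**Figure D5:**
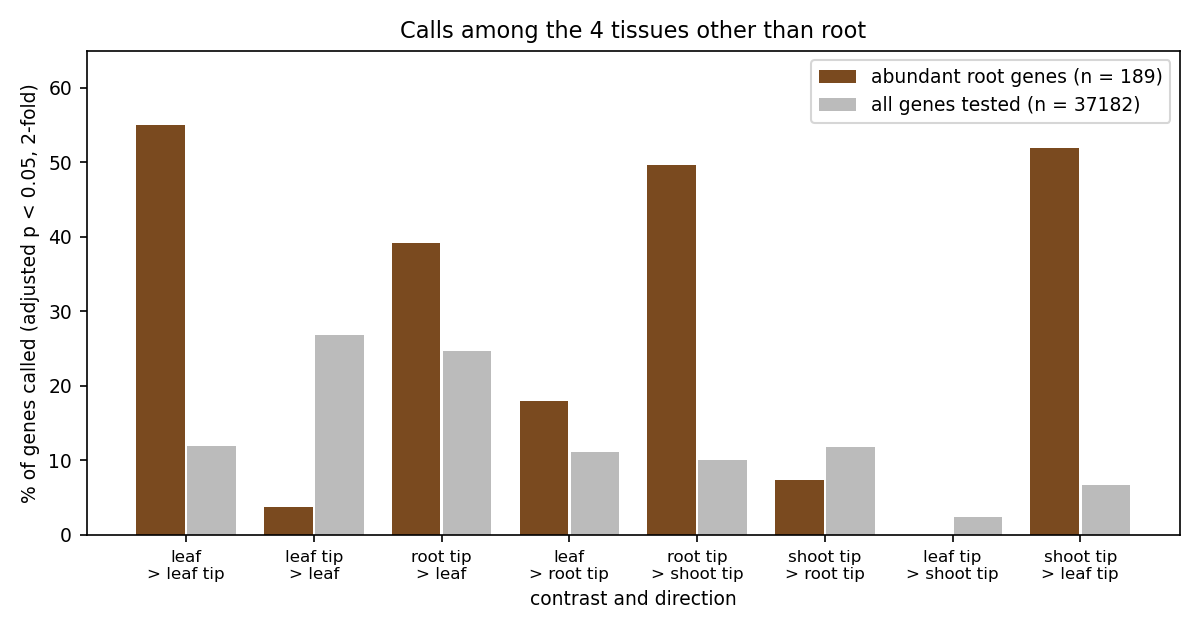
Bars from 0 give the percentage of genes called in each contrast and direction among the tissues other than root, in brown for the 189 abundant root genes and in grey for all 37182 genes tested. The brown bars exceed the grey most for leaf over leaf tip (55 against 11.9), root tip over shoot tip (49.7 against 10.1) and shoot tip over leaf tip (51.9 against 6.72). They exceed it less for root tip over leaf (39.2 against 24.7) and leaf over root tip (18 against 11.1). They are below it for leaf tip over leaf (3.7 against 26.8) and shoot tip over root tip (7.41 against 11.8). The brown bar is at 0 for leaf tip over shoot tip.

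Of the 189 genes 22 had no call in any of the 4 contrasts. The same count was not made over all genes tested, so it does not set the abundant root genes apart. By the F test above, a lack of a call was rarer in the set, as 91% were called against 62% of all genes. A missed call does not show that their levels were equal. RT_TRINITY_DN5313_c1_g1, the most abundant of them, averaged 395.4 TPM in root, 60.5 in root tip, 54.6 in shoot tip, 40.4 in leaf and 56.2 in leaf tip, and was picked after its values were seen. RO_TRINITY_DN20927_c0_g1 and RO_TRINITY_DN12942_c0_g1, described above, were also among the 22.

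The limits of the rule cut through a continuous range. The lowest root mean inside it was 50.1 TPM, in RO_TRINITY_DN104655_c0_g1, and the highest outside it 49.6, in LA_TRINITY_DN51655_c0_g1. The ratio to the highest other tissue was 4.04 in SHA_TRINITY_DN39288_c0_g1, the nearest inside, and 3.99 in RT_TRINITY_DN14804_c0_g1, the nearest outside. The fold range of the root libraries was 1.96 in RO_TRINITY_DN47_c0_g1 inside and 2.01 in RO_TRINITY_DN6989_c0_g3 outside. The highest library outside the root stood at 10.1% of the root mean in RO_TRINITY_DN1394_c0_g2 inside and at 9.91% in RO_TRINITY_DN10882_c0_g1 outside. Leaving out the limit on the root replicates would have added 41 genes, and leaving out the 10% floor the 123 genes counted above. Without the minimum root mean 977 genes would have been added, and without the 4-fold ratio 3148.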

How the data were processed

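TPM values were deposited by the authors as 1 table of 88641 genes by 15 libraries. Per the submitters' processing notes, the tools were RSEM 1.3.2, Bowtie2 2.3.4.3 and Trim Galore 0.5.0; their settings and reference are not given in the sources used here. Column names were matched to the descriptions in the labels. The 3 leaf columns could be placed in the leaf group only and carry no replicate number.

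The abundant root genes were selected on tissue means of the deposited TPM as described above. The genes, lists and tests were chosen with earlier results of these data known. Values as log2(TPM + 1) were fitted with limma 3.58.1 in R 4.3.3, with an intensity trend and 1 mean for each of the 4 tissues outside the root (12 libraries, 8 residual degrees of freedom). Root libraries stayed out of the fit because the rule limits their spread. Adjusted p-values are Benjamini-Hochberg over the 37182 genes tested. On simulated data with leaf changed against leaf tip, 50 of 50 genes changed 3-fold were called and 0 of 50 changed 1.5-fold. There was 1 false call among 36982 unchanged genes. The 2-fold minimum largely fixes the 0 of 50 and the rarity of false calls. Genes of low mean level were not among those changed, so their recovery is unknown. The simulation had no counting noise and no fixed total.

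Genes are named by a rule: the 10 with the highest root mean, the 3 with the highest root mean for each next tissue, the 2 highest and 2 lowest called genes per contrast, the genes nearest each limit of the rule, and those that share a DN number. Figures were drawn with matplotlib 3.10.9.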

Additional observations from a re-analysis of the deposited data

How the results depend on the processing

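The counts of called genes were recomputed with pseudocounts of 0.1 and 5, without the filter, with a minimum mean of 5 TPM (which kept 156 of the 189 genes), with all 15 libraries, median-ratio scaling, quantile normalization, no intensity trend, and each of the 12 libraries left out. Fold changes were recomputed only for the genes named as the 2 highest and 2 lowest called per contrast. All 292 of these values kept their direction and call. Such large changes were likely to hold, and the fold changes of the other named genes were not recomputed. Of 204 recomputed counts, the number of genes that meet the rule included, 196 stayed within 1.5 times the reported one. The exceptions among the counts follow. Genes lower in leaf than in leaf tip, 7 as reported, were 4 with a pseudocount of 5, 3 with median-ratio scaling and 4 with quantile normalization. Genes lower in leaf tip than in shoot tip were 46 with a pseudocount of 5, against 98; the larger pseudocount shrinks the fold of low genes. In a choice made after seeing the data, the set chosen without root replicate 3 gave 15 genes lower in leaf than in leaf tip and 7 higher in leaf tip than in shoot tip. The rule gave 111 genes at a root minimum of 100 TPM and 115 at 5 times every other tissue, both stricter by construction. Median-ratio scaling before the rule gave 250 genes, 167 of them among the 189. Whether same-numbered tip libraries came from shared samples cannot be told from their values. Their deviations from the tissue means correlated at -0.02 to 0.02 in 9 pairs. Of 9 libraries, 0 correlated best with their own number throughout. Technical replicates could give such values even where the plants were shared. A fit with the replicate block on the tip libraries called 94 and 14 genes for root tip against shoot tip and 0 and 98 for leaf tip against shoot tip, as did the unblocked fit. The leaf columns could not be blocked. Depth is unknown, so precision rests on the replicates alone.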
